A study of Rattus norvegicus with 14 samples.

Results

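The distal miR-379 to miR-410 cluster is a run of maternally expressed microRNA (miRNA) genes in the imprinted Dlk1-Dio3 region. Its level was examined in the serum of Long Evans rat pups on postnatal day 8. Members were chosen by name: 39 miRNA names of the cluster, both arms counted, of which 29 had rows and gave 46 of the 375 mature miRNAs listed. The other 10 names (miR-154b, miR-299, miR-299b, miR-409b, miR-544, miR-654, miR-655, miR-679, miR-758 and miR-1197) had no row among those listed. miR-543 and miR-495, whose precursor genes lie inside the run and which the title of the series names, were left out by the rule. Both arms were listed for 17 precursors, only the 3p arm for 7 and only the 5p arm for 4, and miR-668 carries no arm in its name.

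Small RNA libraries came from 6 pups of dams given 3 ppm of PTU (propylthiouracil, which blocks thyroid hormone synthesis) in drinking water, called hypothyroid in the labels, and from 8 pups of dams given 0 ppm, called euthyroid. All pups were females of the same strain and age, each from its own litter, so a library stands for 1 animal and 1 litter. Exposure was through the dam, per the labels over gestation or nursing, and the labels describe the dams given the drug as mildly hypothyroid. The total of the listed counts ran from 452961 to 2119979 per library, and 3 counts corresponded to 1.44 to 6.38 CPM (counts scaled to a common library size with TMM factors, from the trimmed mean of M values). The marker miRNAs chosen for striated muscle summed to 439196 CPM in PTU and 488043 CPM in Control serum, the largest of the marker sums. In serum, a change in how many cells release a miRNA and a change in how much each releases cannot be told apart.

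miRNAs of about 22 bases are cut from both arms of a hairpin precursor, and bases 2 to 8 (the seed) pair with target mRNAs. The Dlk1-Dio3 domain takes its name from its flanking genes. Dlk1 encodes a Notch-related ligand, and Dio3 encodes a deiodinase that inactivates thyroid hormones. The miRNAs of the cluster are processed from long noncoding transcripts of the maternal chromosome and are abundant in brain, placenta and embryonic tissues. In rat neurons the transcription factor Mef2 induces the cluster upon activity. miR-134, its best studied member, represses Limk1 at the dendritic spines of rat hippocampal neurons. In mice, loss of the cluster impairs the metabolic transition at birth.

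In RefSeq's annotation of assembly GRCr8, all 29 precursor genes with a listed member lie on the plus strand of chromosome 6, between positions 134543445 and 134579838, a span of 36.4 kb from Mir379 to Mir410. All 46 members matched a mature sequence there. The table used has no hairpin for Mir376b and Mir485, which were placed by a mature sequence of theirs. These are RefSeq's positions, since the sources used here do not give the build behind the counts. The sequences below belong to the 5 most abundant members, to the 5 members with an unadjusted p under 0.05 between PTU and Control, and to miR-539-3p, which has the seed of miR-381-3p. The seed is in capitals.
miR-382-5p: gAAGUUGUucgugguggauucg
miR-541-5p: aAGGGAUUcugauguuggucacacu
miR-134-5p: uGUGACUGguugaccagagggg
miR-379-5p: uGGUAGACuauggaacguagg
miR-409a-3p: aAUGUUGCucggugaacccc
miR-410-3p: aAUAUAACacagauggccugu
miR-380-3p: uAUGUAGUaugguccacaucu
miR-487b-3p: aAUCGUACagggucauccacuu
miR-299a-3p: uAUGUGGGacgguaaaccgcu
miR-381-3p: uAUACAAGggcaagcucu
miR-539-3p: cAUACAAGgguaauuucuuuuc
The 46 members carry 44 different seeds, so the cluster is not a seed family. Only 2 seeds were shared, AUACAAG by miR-381-3p and miR-539-3p, and UGGAUAU by miR-376b-5p and miR-376c-5p.

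The cluster held 12.3% of the listed miRNAs and a far smaller part of the counts. It took 3.59% ± 0.202 of the counts in PTU libraries (SD, n = 6) and 3.42% ± 0.332 in Control libraries (SD, n = 8), a gap smaller than the spread between Control libraries. PTU libraries ran from 3.40% (95% Wilson interval 3.37 to 3.44) to 3.97% (3.93 to 4.01), and Control libraries from 3.03% (2.99 to 3.07) to 3.97% (3.94 to 3.99). Nearly the whole PTU range lay inside the Control range. These intervals cover counting error only. As a sum over chosen members, the share was given no test.

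**Figure D1:**
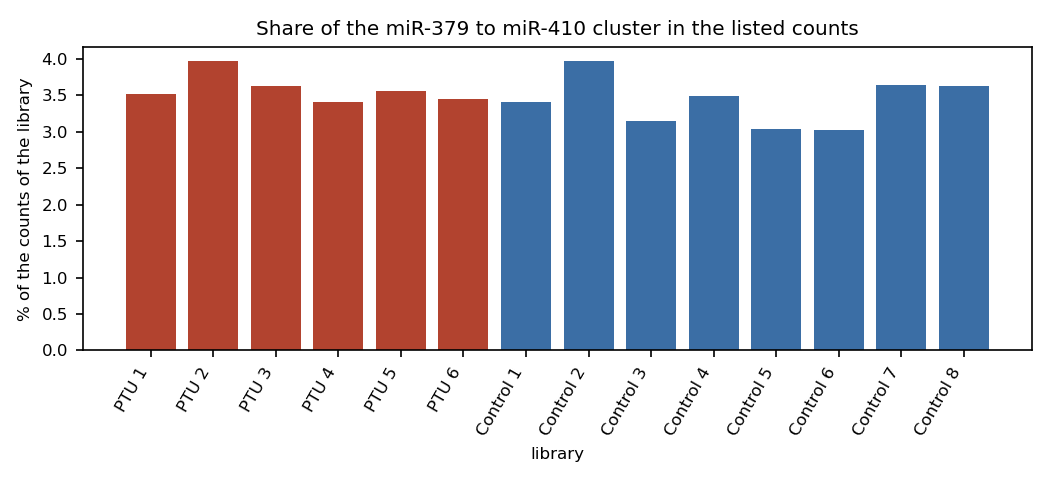
Share of the miR-379 to miR-410 cluster in the listed counts (vertical axis, percent) of each library (horizontal axis; PTU bars left, Control bars right). The highest library of each group reaches 3.97%.

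A few members carried most of these counts. The 5 most abundant held 66.6% of the counts of the cluster, and 61.9% to 71.4% in single libraries. Levels of different miRNAs are set side by side as CPM without a length correction, since a read covers a whole mature miRNA, of 18 to 25 bases here. How evenly the library kit captures different miRNAs and arms was not tested. Differences between them are therefore differences in CPM or counts. miR-382-5p averaged 9806 CPM over the 14 libraries, which is rank 12 among the 375 listed miRNAs. It was followed by miR-541-5p at 5703, miR-134-5p at 3266, miR-379-5p at 2446 and miR-409a-3p at 2364 CPM. In all, 9 members exceeded 1000 CPM, 16 lay between 100 and 1000 CPM and 21 lay under 100 CPM. The least abundant member, miR-539-5p, was 1282-fold below miR-382-5p, and its counts ran from 2 to 25 per library. Every member had counts in all 14 libraries.

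Level did not follow position in the run. The neighbours Mir382, Mir134 and Mir668 gave 9806, 3266 and 91.0 CPM for their more abundant arm, and Mir541, Mir409, Mir412, Mir369 and Mir410, in this order at the distal end, gave 5703, 2364, 51.9, 1156 and 29.2 CPM. Neighbouring precursor genes thus differed in the CPM of their mature miRNAs by orders of magnitude.

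**Figure D2:**
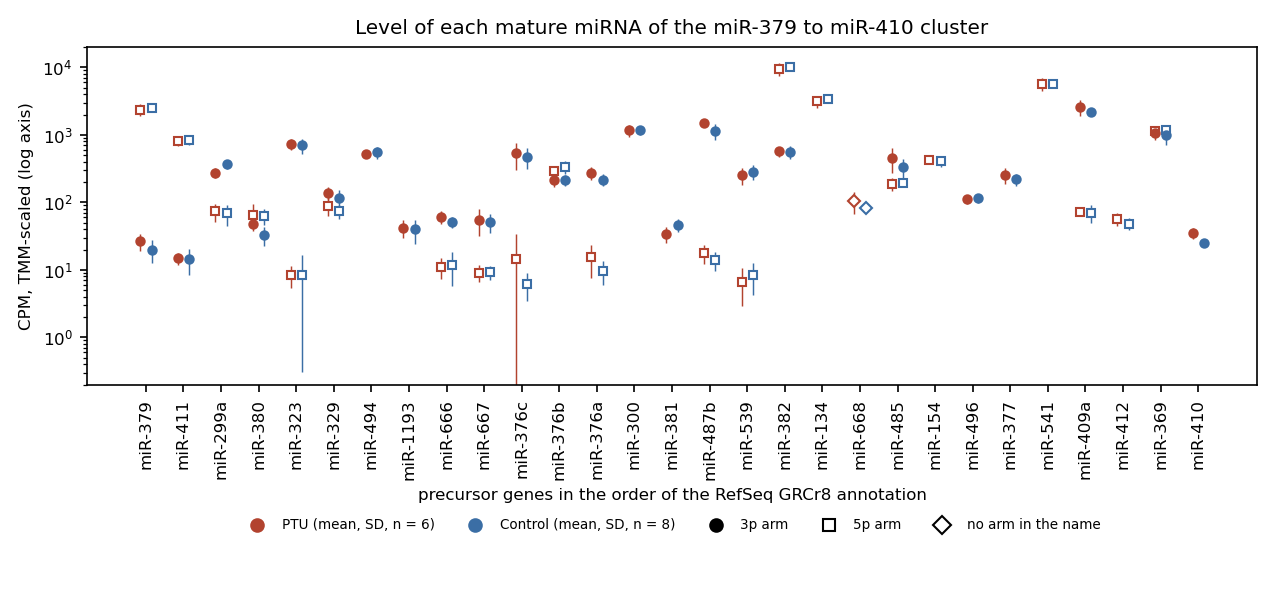
Level of each member (vertical axis, TMM-scaled CPM, log axis) against the precursor genes in chromosomal order (horizontal axis); filled circles are 3p arms, open squares 5p arms and the diamond miR-668. Points are means and bars SDs for PTU (n = 6, left of each pair) and Control (n = 8, right); the PTU bar of miR-376c-5p is longer than its mean and runs off the log axis. The group means of most members nearly coincide, while neighbouring genes differ widely.

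Hypothyroid and euthyroid pups were compared to find whether miRNAs of the cluster differ in the circulation. None of the 43 members tested passed a false discovery rate of 0.05 (quasi-likelihood F test of edgeR, with p adjusted by Benjamini and Hochberg over 357 tested miRNAs), and the share called among all tested miRNAs was 0%. The lowest adjusted p among members was 0.258 (edgeR). At an unadjusted p under 0.05 there were 5 members, 3 with a higher and 2 with a lower PTU mean. That is 11.6% of the members tested, where 13.2% of all tested miRNAs did so (7.84% higher and 5.32% lower). DESeq2, limma-voom, and edgeR's likelihood ratio and exact tests also called 0 members. The count at an unadjusted p under 0.05 was 3 without Control replicate 1, without Control replicate 3 or without Control replicate 5, and no scaling factors gave 8 higher and 1 lower, where the upper-quartile factors gave 0 higher and 2 lower.

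Of the tested members, 28 had a positive and 15 a negative log2 fold change, with a median of 0.05; over all 357 tested miRNAs 206 were positive and the median was 0.03. With upper-quartile factors both medians were negative, -0.06 for the cluster and -0.08 for all miRNAs, and with no factors they were 0.13 and 0.12. The median of the cluster moved together with that of all miRNAs under these scalings. Fold changes of single members ran from -0.45 to 0.69. The 95% interval lay within a 1.5-fold change in either direction for 20 of the 43 members, and within a 2-fold change for 42 of the 43. The exception was the scarce miR-376a-5p.

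**Figure D3:**
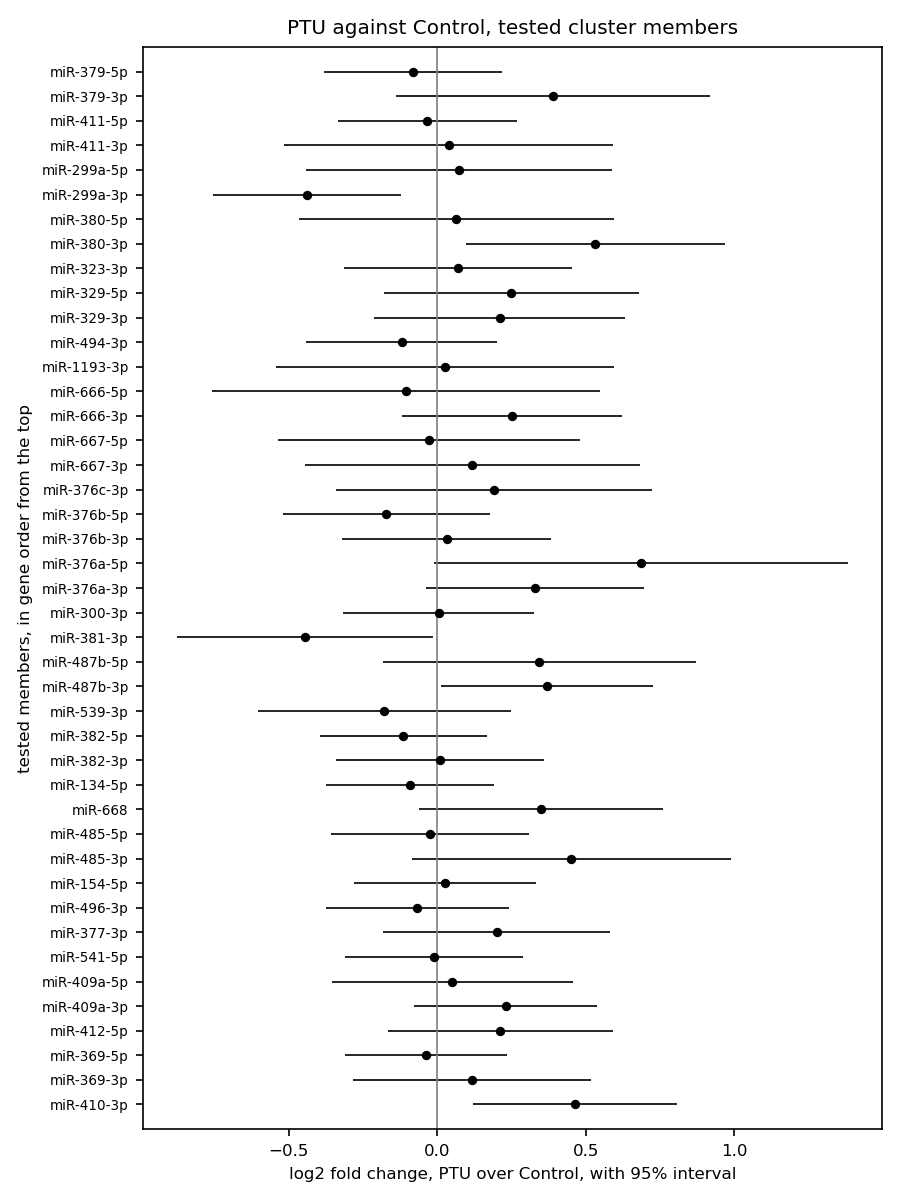
log2 fold change of PTU over Control (horizontal axis; dots) with its 95% interval (lines) for the 43 tested members, in gene order from the top (vertical axis). Values lie between -0.45 and 0.69 on both sides of 0.

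Among members with a higher PTU mean, miR-410-3p had the lowest p. It had 27.5, 33.2 and 44.8 CPM as its lowest, median and highest PTU library, against 20.8, 25.7 and 28.5 CPM in Control. All but 1 of the PTU libraries lay above the highest Control library, and the groups overlapped through that 1 library. Its log2 fold change was 0.46 ± 0.16 (SE; unadjusted p = 0.0109, adjusted p = 0.258, edgeR), at counts of 12 to 73 per library. miR-410 is the last precursor of the run.

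miR-380-3p had 39.5, 46.3 and 56.3 CPM (lowest, median, highest) in PTU libraries, against 17.8, 33.6 and 46.5 CPM in Control. Every PTU library exceeded the Control median and 3 of them exceeded every Control library. The log2 fold change was 0.53 ± 0.21 (SE; adjusted p = 0.258, edgeR). Its partner arm miR-380-5p had a mean of 65.5 ± 27.8 CPM (SD) over the 6 PTU libraries and of 62.4 ± 16.0 CPM over the 8 Control libraries, and its log2 fold change was 0.06 ± 0.25 (SE).

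miR-487b-3p was the abundant member of this group. Its lowest, median and highest PTU libraries had 1341, 1462 and 1695 CPM, against 717, 1109 and 1573 CPM in Control. Again every PTU library exceeded the Control median, and the upper Control libraries reached into the PTU range. The log2 fold change was 0.37 ± 0.17 (SE; adjusted p = 0.356, edgeR). The PTU libraries were close together, with a coefficient of variation (CV) of 8.98% against 27.0% in Control. The scarce arm miR-487b-5p had a log2 fold change of 0.34 ± 0.25 (SE).

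The miR-376 precursors are close relatives whose primary transcripts are known targets of adenosine-to-inosine editing in the seed in brain. miR-376a-5p had the highest fold change of the tested members, 0.69 ± 0.33 on the log2 scale (SE; adjusted p = 0.384, edgeR). Its PTU libraries had 7.63, 14.8 and 30.3 CPM (lowest, median, highest), against 3.85, 10.7 and 16.1 CPM in Control. PTU replicate 6 was the highest library, and leaving it out gave 0.34. The abundant arm miR-376a-3p had a mean of 272 ± 59.0 CPM (SD) over the 6 PTU libraries and of 216 ± 44.4 CPM over the 8 Control libraries. Its log2 fold change was 0.33 ± 0.17 (SE; adjusted p = 0.422, edgeR). miR-376c-3p had 0.19 ± 0.25 and miR-376b-3p 0.03 ± 0.17. With the red cell ratio described below as a covariate these values were -0.08 and -0.05, and with upper-quartile factors miR-376b-3p was at -0.07.

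Among members with a lower PTU mean, miR-299a-3p stood first. It had 221, 272 and 335 CPM as its lowest, median and highest PTU library, against 283, 356 and 440.0 CPM in Control. All 6 PTU libraries lay below the Control median and 3 below every Control library. The log2 fold change was -0.44 ± 0.15 (SE; unadjusted p = 0.00953, adjusted p = 0.258, edgeR). The other arm of the hairpin, miR-299a-5p, had 0.07 ± 0.24 (SE; -0.06 with upper-quartile factors).

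miR-381-3p had 23.3, 34.97 and 45.0 CPM in PTU libraries (lowest, median, highest), against 26.8, 50.3 and 55.2 CPM in Control, where replicate 7 was the lowest. All 6 PTU libraries lay below the Control median. Its log2 fold change was -0.45 ± 0.20 (SE; adjusted p = 0.356, edgeR). miR-539-3p, which shares its seed, had a mean of 252 ± 74.5 CPM (SD) over the 6 PTU libraries and of 285 ± 72.6 CPM over the 8 Control libraries. Its groups overlapped, at a log2 fold change of -0.18 ± 0.20 (SE; -0.34 without PTU replicate 3 and -0.09 without Control replicate 2). miR-376b-5p had -0.17 ± 0.17 (SE), also with overlapping groups.

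**Figure D4:**
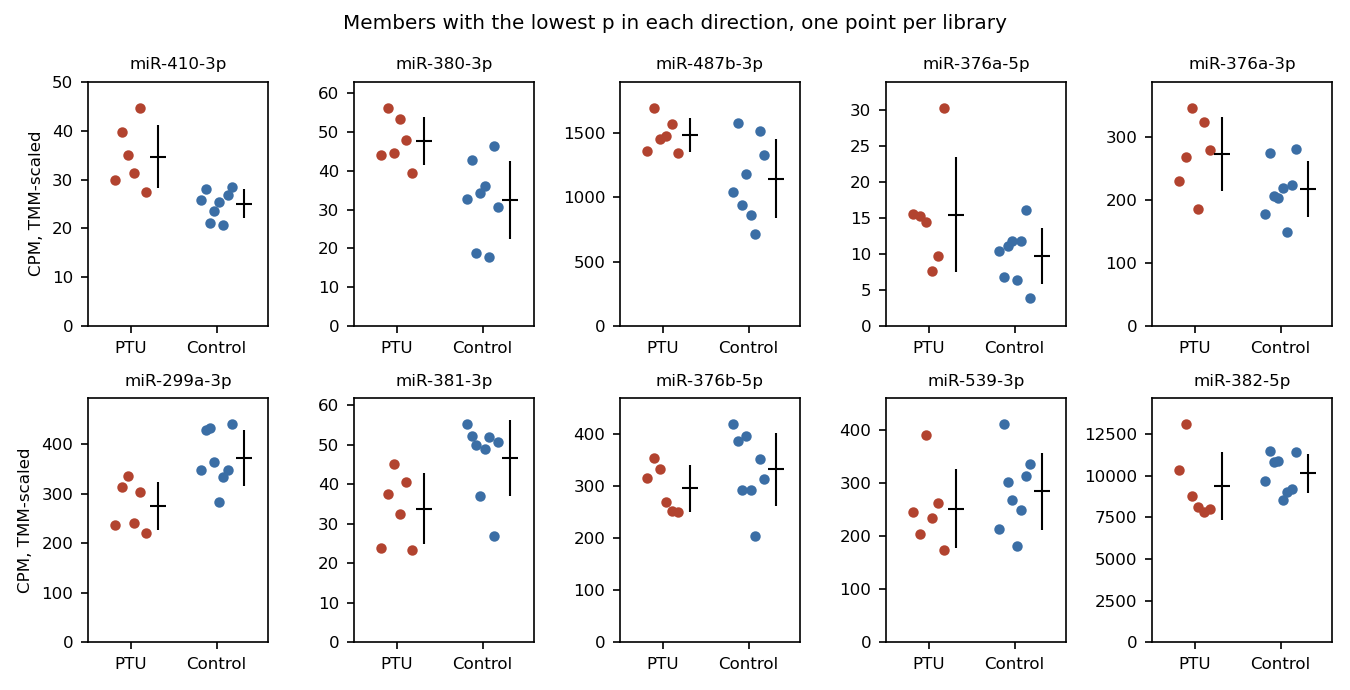
CPM (vertical axes, from 0) of the 5 members with the lowest p among those higher in PTU (top row) and among those lower in PTU (bottom row), 1 point per library, PTU left and Control right in each panel; dashes and bars beside the points are means and SDs. The groups overlap in every panel, for miR-410-3p through 1 PTU library only.

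None of the most abundant members was called between the groups. miR-382-5p had 7831, 8452 and 13089 CPM as its lowest, median and highest PTU library, against 8533, 10266 and 11488 CPM in Control. PTU libraries lay at both extremes: 3 were below every Control library and replicate 2 was above all of them. The log2 fold change was -0.11 ± 0.13 (SE; 95% interval -0.39 to 0.17, edgeR). miR-541-5p had -0.01 ± 0.14, and 0.06 with no factors. The spine regulator miR-134-5p had -0.09 ± 0.13 (95% interval -0.37 to 0.19), and miR-379-5p, the first miRNA of the run, had -0.08 ± 0.14. miR-409a-3p had 0.23 ± 0.15 (95% interval -0.08 to 0.54), with 2 PTU libraries above all Control libraries. Without PTU replicate 2 its log2 fold change was 0.08. Single libraries also moved the small values of the others. Without PTU replicate 2 they were -0.23 for miR-382-5p, -0.20 for miR-134-5p and -0.12 for miR-541-5p. Without PTU replicate 5 they were -0.06 for miR-382-5p and -0.04 for miR-134-5p. miR-379-5p had -0.16 without PTU replicate 3 and -0.02 without PTU replicate 6.

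No member separated the groups without overlap, where 0.56% of all tested miRNAs did. Every PTU library exceeded the Control median for 3 of the 43 tested members (miR-487b-3p, miR-380-3p and miR-410-3p) and was below it for 3 (miR-494-3p, miR-299a-3p and miR-381-3p), or 6.98% in each direction. Of all 357 tested miRNAs, 3.08% lay wholly above it and 7% wholly below.

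By level, 15 of the 18 tested members under 100 CPM had a positive log2 fold change (median 0.17), as had 9 of 16 between 100 and 1000 CPM (median 0.02) and 4 of 9 above 1000 CPM (median -0.01). Of the 134 other tested miRNAs under 100 CPM, 71 had one (median 0.02). With upper-quartile factors the number under 100 CPM was 10 of 18 (median 0.06) and the other medians were negative; with no factors it was 16 of 18. These level classes were set after the values were seen, and the difference between members and other miRNAs was not tested. Split by gene order into proximal, middle and distal precursors, the medians were 0.06, 0.02 and 0.08 over 17, 14 and 12 tested members, and -0.06, -0.08 and -0.02 with upper-quartile factors.

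Red cell miRNAs differed in mean between the groups, with 0 of them called. All 7 listed members of the red cell marker list had a higher PTU mean in the fit (median log2 fold change 0.82), and none was at 0 in any library. Their summed level ran from 68040 to 159535 CPM in PTU and from 82380 to 134838 CPM in Control. The red cell ratio (miR-451-5p over miR-23a-3p, on the log2 scale) ran from -0.51 to 1.54 in PTU and from -1.23 to 0.58 in Control. It tended to be higher in PTU, so a fit with it cannot fully tell the ratio and the group apart. With this ratio as a covariate, 5 members had an unadjusted p under 0.05 (9.8% of all tested miRNAs did), 4 higher and 1 lower in PTU, and 0 passed the adjusted threshold. Of these 5, 2 (miR-410-3p and miR-299a-3p) were among those without the covariate; the others were miR-409a-3p, miR-485-3p and miR-668. The median of the cluster was then 0.01. The 9 neuron and brain markers were all listed, and 7 of the 8 tested had a higher mean in PTU (median log2 fold change 0.25); their summed level ran from 5767 to 15251 CPM in PTU and from 3748 to 14694 CPM in Control. Their part in the values of the cluster was not tested.

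The arms of a hairpin come from the same transcript in the same library, so their ratio does not depend on library scaling. It was examined in the 15 precursors of the cluster with both arms listed at a mean of at least 10 counts. The 3p arm was the more abundant in 9 of them and the 5p arm in 6. The ratio exceeded 10-fold in 7 of 15 (46.7%), against 48.9% of all 94 precursors of the series that met the same rule. It was largest for miR-379, whose 5p arm exceeded its 3p arm 109-fold, followed by miR-487b (81.5-fold to the 3p arm) and miR-376c (63.96-fold to the 3p arm). The 5p arm of miR-376c averaged 11.7 counts and passed the cutoff of 10 only through PTU replicate 6. That library had 76 of its counts, where every other library had 16 or fewer. In miR-369 the arms were nearly equal, at a ratio of 1.14 to the 5p arm. The hairpins of miR-379 and miR-369, at the opposite ends of this range, are shown with both mature arms in capitals, the 5p arm first.
Mir379: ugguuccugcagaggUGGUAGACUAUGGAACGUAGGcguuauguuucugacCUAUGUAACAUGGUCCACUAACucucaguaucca
Mir369: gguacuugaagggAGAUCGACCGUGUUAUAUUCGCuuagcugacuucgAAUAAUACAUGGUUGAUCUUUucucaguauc
The same arm was the more abundant in every library for 12 of the 15 precursors.

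Arm ratios did not pass the threshold between the groups. None of the 15 reached an adjusted p under 0.05 (two-sided exact permutation test with 3003 arrangements of the labels, adjusted over 94 precursors; lowest adjusted p = 0.365), and 0% of the 94 did. At an unadjusted p under 0.05 there were 0 of 15 members, where 10.6% of the 94 precursors passed. This count was not stable: limma gave 3 (miR-299a, miR-379 and miR-380), where it gave 12.8% of the 94. It was 2 without PTU replicate 5 (miR-299a and miR-379) and 2 without Control replicate 5 (miR-380 and miR-485). It was 1 without PTU replicate 3, or without Control replicate 3, 4, 6 or 7, and 1 (miR-299a) with a replicate block. With libraries left out or with the block, the share over all precursors was not counted, so these counts have no background. The lowest p belonged to miR-380, with a mean log2 ratio of 3p to 5p of -0.35 ± 0.59 in PTU (SD, n = 6) and -0.96 ± 0.52 in Control (SD, n = 8; exact permutation p = 0.0593). miR-485 had 1.199 ± 0.28 in PTU and 0.73 ± 0.49 in Control (exact permutation p = 0.0623), and miR-379 had -6.47 ± 0.48 in PTU and -7.00 ± 0.48 in Control (exact permutation p = 0.0649). miR-485-5p is known to act at synapses of rat neurons. For miR-299a the ratio was 1.93 ± 0.58 in PTU and 2.50 ± 0.49 in Control (exact permutation p = 0.0699). Across the 15, the ratio was higher in PTU for 12, with a median difference of 0.16 on the log2 scale. Over all 94 precursors it was higher in PTU for 44 (46.8%), with a median difference of -0.01. The difference between members and other precursors was not tested.

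**Figure D5:**
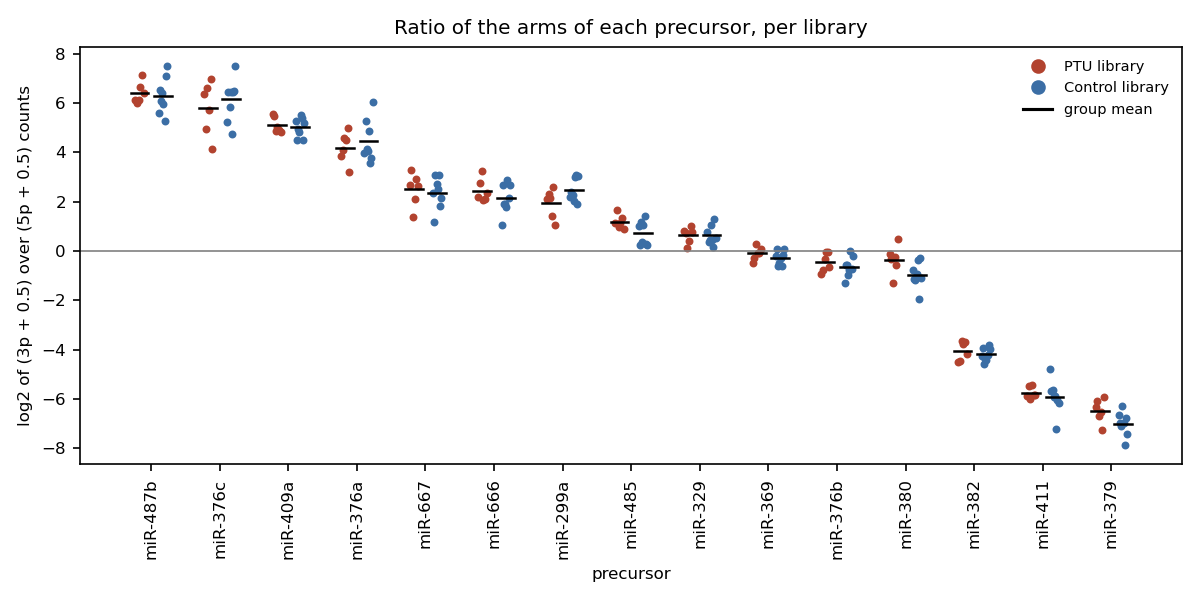
log2 of the 3p count over the 5p count, 0.5 added to each (vertical axis), in every library. The 15 precursors with both arms at a mean of at least 10 counts are on the horizontal axis, sorted by mean. PTU points are left, Control points right, and lines mark the group means. Ratios differ far more between precursors than between the groups.

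Libraries differed from each other in more than counting error. Among members over 1000 CPM the median CV was 21.0% in PTU and 13.5% in Control libraries, while counting alone would give 2.12% in Control. Other tested miRNAs over 1000 CPM had 25.5% in PTU and 18.4% in Control. For members between 100 and 1000 CPM the median CV was 20.5% in PTU and 20.4% in Control, with 5.50% from counting. Among tested members, miR-409a-3p varied least in Control (CV 9.62%) and miR-666-5p most (51.5%).

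Members did not all follow one library. PTU replicate 2 was the highest of all 14 libraries for 14 of the 46 members, among them miR-382-5p, miR-541-5p, miR-134-5p, miR-409a-3p, miR-485-3p and miR-668. PTU replicate 6 was the lowest of its group for 22 members, miR-379-5p and miR-541-5p among them, and the highest of all libraries for 5: miR-376c-3p, miR-376c-5p, miR-376a-5p, miR-377-3p and miR-299a-5p. In Control, replicate 6 was the lowest of all libraries for 15 members and replicate 5 for 8. Replicate 5 was the smallest library.

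The filter on low counts left out 3 members. miR-376c-5p had 3.26, 6.69 and 53.6 CPM (lowest, median, highest) in PTU and 2.96, 6.01 and 10.6 CPM in Control, and its 76 counts in PTU replicate 6 stood far above the 16 or fewer elsewhere. miR-323-5p had a mean of 8.46 ± 3.03 CPM (SD) over the 6 PTU libraries and of 8.38 ± 8.08 CPM over the 8 Control libraries. miR-539-5p averaged 6.71 ± 3.78 CPM in PTU and 8.35 ± 4.11 CPM in Control. At the low end of the tested members, miR-667-5p averaged 9.13 ± 2.60 CPM in PTU and 9.17 ± 2.12 CPM in Control. Some members resemble each other closely: miR-376b-5p and miR-376c-5p differ by an edit distance of 2 bases, and miR-376a-3p and miR-376b-3p, like miR-379-3p and miR-411-3p, by 3. For miR-381-3p and miR-300-3p the distance is 5, mostly from their unequal length. The 18 bases of miR-381-3p differ from the start of miR-300-3p only by A for G in the seed. miR-300-3p averaged 1171 CPM and miR-381-3p 41.1 CPM over the 14 libraries. Another counter could divide reads between such pairs differently, and the effect on the fold change of miR-381-3p was not tested.

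The other miRNAs of the Dlk1-Dio3 locus listed here numbered 25, all tested. Of these, 17 had a higher mean in PTU (median log2 fold change 0.06). An unadjusted p under 0.05 was reached by 3 (12%), where 13.2% of all 357 tested miRNAs reached it. The 3 were miR-543-3p (0.83 ± 0.19, SE), miR-495 (0.53 ± 0.19) and miR-673-5p (0.49 ± 0.19), with adjusted p = 0.155, 0.258 and 0.258 (edgeR). Mir543 and Mir495 lie between Mir666 and Mir667, whose miR-666-3p and miR-667-3p had 0.25 ± 0.18 and 0.12 ± 0.27 (SE). Whether these flanking members differ from miR-543-3p in their response was not tested.

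In the authors' deposited table, 0 of the 46 members had an FDR under 0.05, where 0.8% of all 375 miRNAs had one, and the lowest FDR of a member was 0.286, for miR-376c-5p at a log2 fold change of 1.33. The authors' deposited table gives 6 members (13%) and 12% of all miRNAs a p-value under 0.05. For the members this adds miR-376c-5p and miR-376a-5p to the 5 given above and leaves out miR-381-3p. For the 43 tested members, the log2 fold changes of the authors' deposited table had the same sign as those given here in 43.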

How the data were processed

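Serum small RNA was sequenced with the QIAseq miRNA kit after 22 cycles of PCR, per the labels' protocols. The authors deposited 1 table of raw counts (whole numbers, not normalized) for 375 mature miRNAs, with their log2 fold change and log2 CPM, p-value and FDR, and the mean count of each group as a linear signal. The sources used here do not say whether these are reads or molecules, nor give the aligner, the miRNA reference, the build or the filter. The submitters' processing notes name edgeR. Identifiers in the sample titles tie each column to its library. All pairs of libraries within a group differed by more than sampling noise.

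Counts were fitted with edgeR 4.0.16 in R 4.3.3 (filterByExpr, 357 kept; TMM; glmQLFit and glmQLFTest; all 14 libraries, no covariate). Standard errors are the absolute log2 fold change over the square root of F. CPM uses TMM-scaled library sizes. Arm ratios are log2 with 0.5 counts added to each arm, tested by exact permutation over 3003 splits, whose smallest p is 0.000333. Alternatives used other scalings and filters, DESeq2 1.42.0, limma 3.58.1, a red cell covariate, a replicate block and each library left out. The fit was tested on simulated data. Sequences and gene order are from RefSeq (GRCr8).

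The members, lists and tests were chosen with earlier results of these data known. Members named are the 5 of lowest p among those higher and among those lower in PTU, the 5 most and 3 least abundant, those left out by the filter, the extremes of arm ratio and of CV, and the other arms of these. Others were named after their values were seen.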

Additional observations from a re-analysis of the deposited data

Results flagged for a closer look

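In 6 of 104 sets of libraries (1 named member, arm ratio or cluster share in 1 group) 1 library stood apart from the rest of its group. Chance gives about 1 in 20 in sets not chosen by their values. Some of the named members were chosen for extremes of their values, so that rate is no fair reference here. PTU replicate 6 accounts for 3 of the 6 sets. It had 53.6 CPM of miR-376c-5p, where the other PTU libraries had 3.26 to 12.9 CPM, and 30.3 CPM of miR-376a-5p, where the others had 7.63 to 15.5 CPM. It had 906 CPM of miR-369-5p, where the others had 1137 to 1226 CPM. PTU replicate 2 had 4278 CPM of miR-134-5p, where the other PTU libraries had 2578 to 3173 CPM. In the Control group, replicate 1 had 25.9 CPM of miR-666-5p, where the others had 4.45 to 12.8 CPM, and replicate 2 had 116 CPM of miR-329-5p, where the others had 60.8 to 79.8 CPM.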

How the results depend on the processing

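In none of 27 settings did a member pass the threshold used there, an adjusted p of 0.05, or of 0.1 in 1 setting run with edgeR alone. The lowest adjusted p of a named member was 0.0759 (miR-299a-3p, DESeq2), which is under 0.1. Over all tested miRNAs the number called was 0, but 1 with DESeq2, 3 with the likelihood ratio test and 3 with the exact test (added after the data were seen), and 0 to 1 with single libraries left out. The number of members at an unadjusted p under 0.05 was 2 with upper-quartile factors, 9 with no factors and 3 to 7 with single libraries left out. The share over all tested miRNAs was not counted in these settings, so these counts have no background. The median of the cluster ran from -0.0047 to 0.12 over the same left-out libraries, below 0 without Control replicate 5 or 6. With 5 counts added per arm, 1 of the 94 arm ratios passed (miR-543, not a member). Without miR-206-3p in the denominator the cluster took 5.74% in PTU and 5.48% in Control. The replicate block gave 5 members at an unadjusted p under 0.05, also without a counted background, and a median of 0.09. Same-numbered libraries had correlations of -0.25 to 0.29, and only PTU replicate 4 correlated best with the Control library of its own number. The replicate numbers follow the identifiers in the sample titles when sorted as text. No pairing was seen, but correlations this few cannot exclude one.

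Signs turned only in 14 named members whose log2 fold changes were small (at most 0.19 in size, for miR-376c-3p). With upper-quartile factors these were miR-299a-5p (-0.063), miR-323-3p (-0.026), miR-376b-3p (-0.074), miR-380-5p (-0.020), miR-382-3p (-0.092) and miR-409a-5p (-0.060). With no factors they were miR-369-5p (0.044), miR-485-5p (0.061), miR-541-5p (0.059) and miR-667-5p (0.051). With limma-voom they were miR-299a-5p (-0.15), miR-376c-3p (-0.11), miR-409a-5p (-0.062) and miR-666-5p (0.082). With the red cell covariate they were miR-299a-5p (-0.20), miR-369-3p (-0.079), miR-376b-3p (-0.052), miR-376c-3p (-0.084), miR-382-3p (-0.050), miR-485-5p (0.12) and miR-541-5p (0.040). With the replicate block they were miR-323-3p (-0.058), miR-369-5p (0.0019), miR-380-5p (-0.0032) and miR-667-3p (-0.095), with DESeq2 miR-382-3p (-0.00034), and with the stricter filter miR-541-5p (0.00051). With single libraries left out the ranges were -0.088 to 0.18 (miR-299a-5p), -0.025 to 0.15 (miR-323-3p), -0.075 to 0.026 (miR-369-5p), -0.032 to 0.11 (miR-376b-3p), -0.072 to 0.32 (miR-376c-3p), -0.17 to 0.20 (miR-380-5p), -0.056 to 0.072 (miR-382-3p), -0.025 to 0.13 (miR-409a-5p), -0.11 to 0.080 (miR-485-5p), -0.12 to 0.042 (miR-541-5p), -0.23 to 0.099 (miR-666-5p), -0.10 to 0.24 (miR-667-3p) and -0.16 to 0.12 (miR-667-5p). The cause was not tested. For members under 100 CPM, counting alone would give a median CV of 14.8% in Control.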

Other observations

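Of the 314 tested miRNAs outside the cluster, 3 had the highest Pearson correlation with the mean log2 CPM of the 10 most abundant members over the 14 libraries. They were miR-133b-3p, made in skeletal muscle (r = 0.92, Spearman's rho = 0.88), miR-337-5p (r = 0.92, rho = 0.83) and miR-337-3p (r = 0.85, rho = 0.93), both of the Dlk1-Dio3 locus. Without PTU replicate 6 and Control replicate 5, the libraries farthest from the median, r was 0.90, 0.87 and 0.82. These values share libraries, depth and scaling, and as the highest of 314 they are given as a description, with no p.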
